A study of Homo sapiens with 13 samples.

Results

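Long noncoding RNAs held 340 of the 8100 windows in which binding by the splicing factor SRSF2 was listed as different between P95H and wild type protein. They were the windows whose transcript was labelled as neither protein coding nor pseudogene, retained intron, nonsense-mediated decay, processed transcript or small RNA, with MALAT1 and NEAT1 left out, and each position was counted once. They fell in 159 genes. By transcript class, 185 windows were in lincRNAs (long intergenic noncoding RNAs) and 103 in antisense transcripts. A further 25 were in TEC transcripts, a provisional class awaiting experimental evidence, and 12 were sense overlapping, 7 sense intronic, 6 macro lncRNA and 2 overlapping a coding gene at its 3′ end.

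All samples were HEL cells, an established human erythroleukemia line, carrying a stable construct for wild type (WT) or P95H SRSF2. For HITS-CLIP, which sequences RNA crosslinked to a tagged protein, 4 WT and 4 P95H samples had received doxycycline at 1 µg/ml for 36 hours. RNA-seq covered 2 WT and 2 P95H samples after 48 hours with the drug and 1 P95H sample labelled uninduced. Each line also has its own SRSF2 gene, and the sources used here do not say whether a line was 1 clone.

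SRSF2 is an SR protein that binds exonic splicing enhancers through its RNA recognition motif. Its known sites hold the tetramers CCNG or GGNG, and P95H, a substitution recurrent in myelodysplastic syndromes and leukemia, is known to favour the first over the second. Long noncoding RNAs are spliced and polyadenylated much like messenger RNAs, and some act in the nucleus in imprinting, chromatin organisation or as hosts of small nucleolar RNAs. Many lie across from a coding gene or contain copies of other sequences, so assigning a short read to one of them depends on strand and on unique alignment.

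The sequences below were chosen because they show what such a window is made of at places where the answer to "which transcript" differs. No genome sequence was at hand, and 8 of the 340 windows lay inside the RefSeq promoter sequences (GRCh38.p14, 250 bases before to 50 after each start), so only those could be read. All are 5′ to 3′, include both end positions of the window, and have CCNG and GGNG in capitals. Whether the deposited starts count from 0 or 1 is not stated, so each may hold 1 base too many at one end. The window in LINC00152 (also known as CYTOR) lay at chr2:87455497-87455517 on the plus strand, and is the only one of the 8 that was higher in P95H.
LINC00152: attgggaatGGAGggaaataa
A window of LINC01465 at chr12:62603599-62603619 on the minus strand was lower in P95H and held neither tetramer.
LINC01465: ccttcctcgccgccgacgtcg
At chr19:8444994-8445014, the minus strand is the TEC transcript RP11-886P16.10 and the plus strand is HNRNPM, a coding gene for a splicing regulator. The same bases are given for each strand.
RP11-886P16.10: cgaccCCTGccgccattttct
HNRNPM strand: agaaaatGGCGgcaGGGGtcg
Near chr15:32614962-32614983 the lincRNA RP11-1000B6.5 runs on the plus strand and the antisense transcript RP11-1000B6.8 on the minus strand. Each had a window there, starting at the same base.
RP11-1000B6.8: aaagaagaCCCGtcgtgagagg
RP11-1000B6.5: cctctcacgacgggtcttctt

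Read on the labelled strand, CCNG stood in 4 of the 7 lower windows with sequence (57.1%) and GGNG in 0 of them, while the 1 higher window had GGNG. These windows overlap, since 3 of the 4 are from RP11-886P16.10, and over merged regions CCNG stood in 2 of 4. With 10 bases added on each side, CCNG stood in 5 and GGNG in 1 of the 7. Of the other windows of the table inside promoter sequences, CCNG stood in 20.0% of 50 higher and 41.4% of 99 lower ones, and GGNG in 50% and 55.6%. The last 21 bases of all 35116 promoter sequences held CCNG in 39.2% and GGNG in 40.4%. The motifs were CCNG and GGNG on the transcribed strand, and they can overlap each other. In RP11-886P16.10 the strand decides which tetramer is read. Its strand gave CCTG, and that of HNRNPM gave GGCG and GGGG.

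The first comparison asks in which direction P95H changed binding to these transcripts. Of the 340 windows, 152 were higher in P95H (44.7%, Wilson 95% interval 39.5 to 50.02%) and 188 lower (55.3%), where the whole table had 22.3% higher and 77.7% lower. The interval treats windows as independent, which overlapping windows are not. The table lists only windows past a 2-fold change and an adjusted p of 0.05 in the authors' comparison, so their direction is what varies. Protein-coding windows were higher in P95H in 19.3% of 5081 and pseudogene windows in 14.1% of 1023. Retained introns stood at 26.5% of 667 and nonsense-mediated decay windows at 28.0% of 321. The lincRNA windows of MALAT1 and NEAT1, left out of the members, were higher in 59.3% of 54. Small RNAs went both ways, with all 47 snRNA windows and 75 of 77 misc RNA windows higher, but 8 of 37 snoRNA windows (21.6%) and 0 of 3 scaRNA windows. No test was made of these differences.

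Direction varied within the long noncoding classes. In lincRNAs 87 of 185 windows were higher (47.0%), in antisense transcripts 33 of 103 (32.0%), in TEC transcripts 14 of 25 (56.0%) and in sense overlapping ones 9 of 12. All 6 windows of the macro lncRNA HELLPAR were higher, and 1 of 7 sense intronic windows was. Over genes, 68 had only higher windows, 80 only lower ones and 11 both. By the median of their windows, 48.4% of the 159 genes were higher, against 36.0% of all genes with windows. Windows were unevenly spread, with 99 genes holding 1 window each and 12 genes holding 117. Merging windows that overlapped on a strand and moved alike left 216 regions, of which 116 were higher (53.7%) and 100 lower, against 33.9% higher over all regions of the table.

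**Figure D1:**
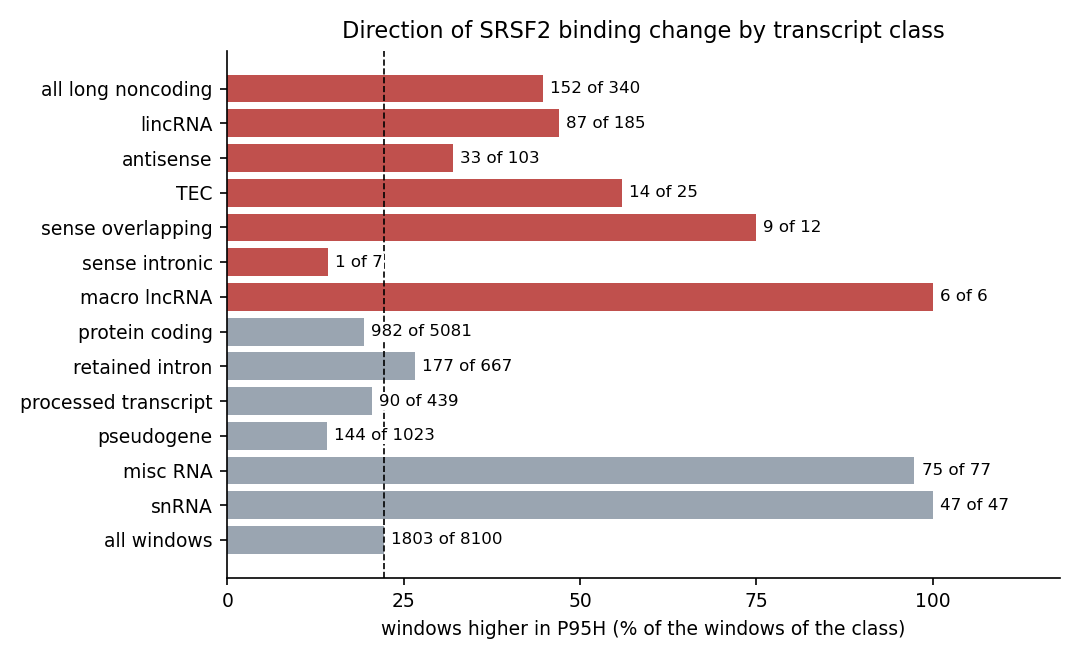
Share of windows that were higher in P95H for each transcript class, with the number of windows beside each bar; red bars are long noncoding classes, grey bars other classes, and the dashed line is the whole table at 22.3%. The long noncoding windows together reached 44.7%, with antisense (32.0%) below lincRNA (47.0%).

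Many of these windows had a counterpart on the opposite strand. Of the 340, 106 (31.2%) overlapped another window of the same table on the other strand, compared with 221 of the remaining windows (2.85%). They lay in 41 genes. All 106 changed in the same direction as their partner, and 104 started within 5 bases of it. In 96 of them the higher mean CPM was within 10% of the partner's, with a median gap of 2.79%. The partner was labelled protein coding for 39 windows and pseudogene for 39. Of these mirrored windows 14 were higher in P95H (13.2%), and 31 of the 92 lower ones were in LINC00987.

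Away from such pairs the direction differed. Among the 168 windows with no gene of the count table on the opposite strand, 115 were higher (68.5%), where windows of other classes in that setting stood at 21.4%. Among 66 windows that had a gene across from them but no mirrored window, 23 were higher (34.8%). Without the mirrored windows, 138 of 234 were higher (59.0%), and the whole table without them stood at 22.6%. Whether 1 set of reads was counted on both strands, or both strands were bound, cannot be told apart from the deposited values, and the sources used here do not say how strand was handled. This split did not consider genes on the same strand. A coding gene lay on the same strand at 31 long noncoding windows. Genes with such an overlap were AC006548.28 with GAB4 (9 windows higher, 1 lower) and RP11-886P16.10 with ELAVL1 (6 lower). The direction of the 31 as a set was not counted, and which transcript their reads came from was not tested.

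LINC00987 on chromosome 12 held more windows than any other member, 31, all lower and all mirrored by the pseudogene PTMAP4, a copy of the prothymosin alpha gene. They ran from position 9240109 to 9240317 on the plus strand. Deposited WT means had a median of 79.9 CPM (0.84 to 81.9) and P95H means a median of 38.3 CPM (0.06 to 39.5), the highest binding of all members. At the highest window the means were 81.9 ± 50.7 CPM in WT and 39.5 ± 20.0 CPM in P95H (± standard error of the authors' deposited table). PTMAP4 had 87.8 and 41.8 CPM there. LINC00987 itself had 0.10 to 0.25 CPM in the 5 RNA-seq libraries. The member with the highest HITS-CLIP means thus had few RNA-seq counts.

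Other loci showed the same pairing, with pseudogenes and with coding genes. AC021224.1 on chromosome 18 had 11 windows, 8 of them mirrored by HNRNPA1P7, a pseudogene of the splicing repressor hnRNP A1. Its leading window stood at 12.6 ± 4.5 CPM in WT and 4.47 ± 3.2 CPM in P95H in the authors' deposited table, beside 13.01 and 4.68 CPM for HNRNPA1P7. No read of AC021224.1 was counted in any RNA-seq library. RP1-261G23.7 mirrored VEGFA, the angiogenic growth factor gene, in all 6 of its windows (5.95 against 5.90 CPM in WT, 2.02 against 1.98 in P95H), and it too had 0 RNA counts. RP11-886P16.10, whose sequence is given above, mirrored HNRNPM in all 6 windows, with 2.40 CPM in WT beside 2.42 for HNRNPM and 0.07 CPM in P95H for both.

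Pairs were also found where binding rose. RP11-386G11.10, antisense to the alpha-tubulin gene TUBA1B, held the 2 windows with the largest rise in the authors' deposited table. They were listed at 0 in WT and at 2.30 ± 2.28 and 2.35 ± 2.33 CPM in P95H. TUBA1B across from them stood at 0 in WT and at 2.30 and 2.41 CPM in P95H. In both windows of RP11-386G11.10, 1 P95H sample held at least 80% of the P95H signal, by the bound given below. Another window rose from 0.16 to 1.24 CPM, and the last fell from 4.53 to 2.08 CPM. AC025165.8, across from ARHGEF25, was listed at 0 in WT and at 1.21 CPM in P95H, with 1.15 CPM for ARHGEF25.

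**Figure D2:**
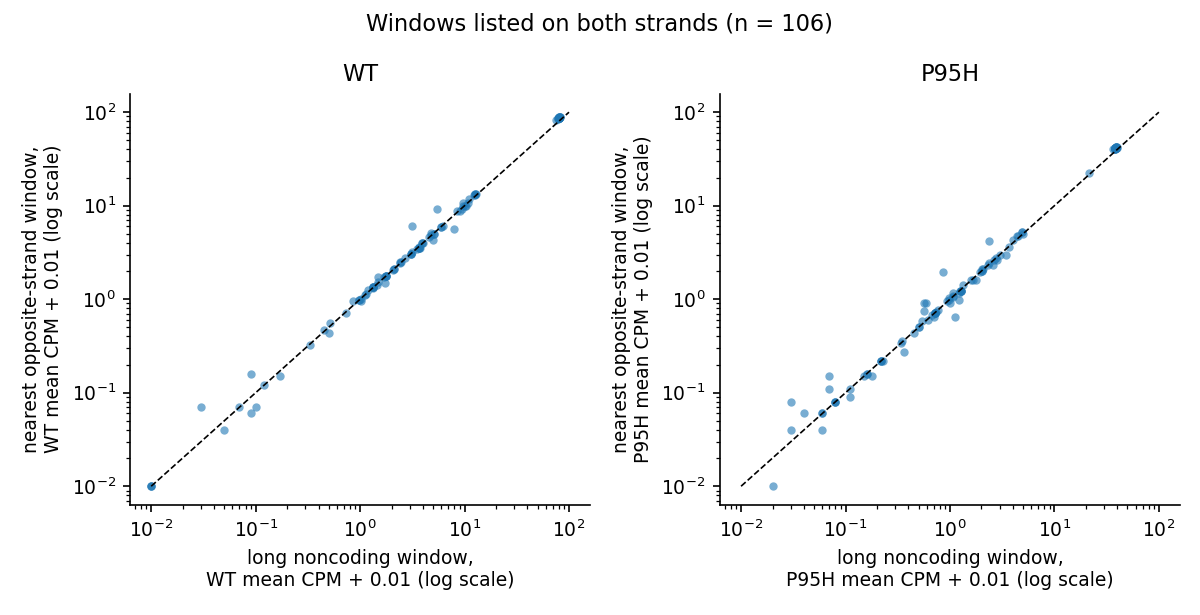
Deposited mean CPM of each of the 106 mirrored long noncoding windows (horizontal axis) against the nearest window on the opposite strand (vertical axis), for WT and P95H, on log axes after adding 0.01; the dashed line marks equal values. Most points lie along the line, up to the PTMAP4 pair near 80 CPM in WT.

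Binding at 6 other genes repeated a run of values seen elsewhere. Such runs linked 26 genes of the whole table, so they were not shown to be particular to long noncoding RNAs. Runs of 3 neighbouring windows with the same spacing (to within 2 bases) and with all means and standard errors within 15% of the higher mean were looked for at pairs of loci, a search made after the values were seen. It linked LINC00504 on chromosome 4, AC011747.4 on chromosome 2, the lincRNA ENSG00000275512 on chromosome 18, AC006548.28 on chromosome 22, CTC-448F2.7 on chromosome 19 and AC018464.3 on chromosome 7. SHISA9, a coding gene, and CYSLTR1, as a processed transcript, had matching runs. The search took only windows higher in P95H with a mean of at least 1 CPM, so the direction of these runs was set by it. The 6 genes held 19 such windows, with a median log2 change of 1.46 in the authors' deposited table.

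At the window with the highest P95H mean, LINC00504 rose from 2.19 ± 0.98 to 6.76 ± 4.02 CPM in the authors' deposited table. AC011747.4 rose from 2.19 ± 1.03 to 6.87 ± 4.21 CPM and ENSG00000275512 from 2.19 ± 0.94 to 6.83 ± 4.06 CPM there. The deposited means were 1.96 and 6.41 CPM for AC006548.28, 1.91 and 5.83 CPM for CTC-448F2.7, and 1.81 and 4.94 CPM for AC018464.3. The standard errors of the genotypes overlapped at several of these windows, although each passed the authors' test. AC018464.3 matched SHISA9 alone, and the other 5 members matched at least 1 other member as well as SHISA9. In RNA-seq, CTC-448F2.7 and AC018464.3 had 0 counts in all 5 libraries, and LINC00504 had 1.08 to 2.17 CPM. AC006548.28 and AC018464.3 ran in the reverse order along the chromosome compared with LINC00504. Whether a shared repeat sequence lies under these windows was not tested, since no genome sequence was at hand.

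**Figure D3:**
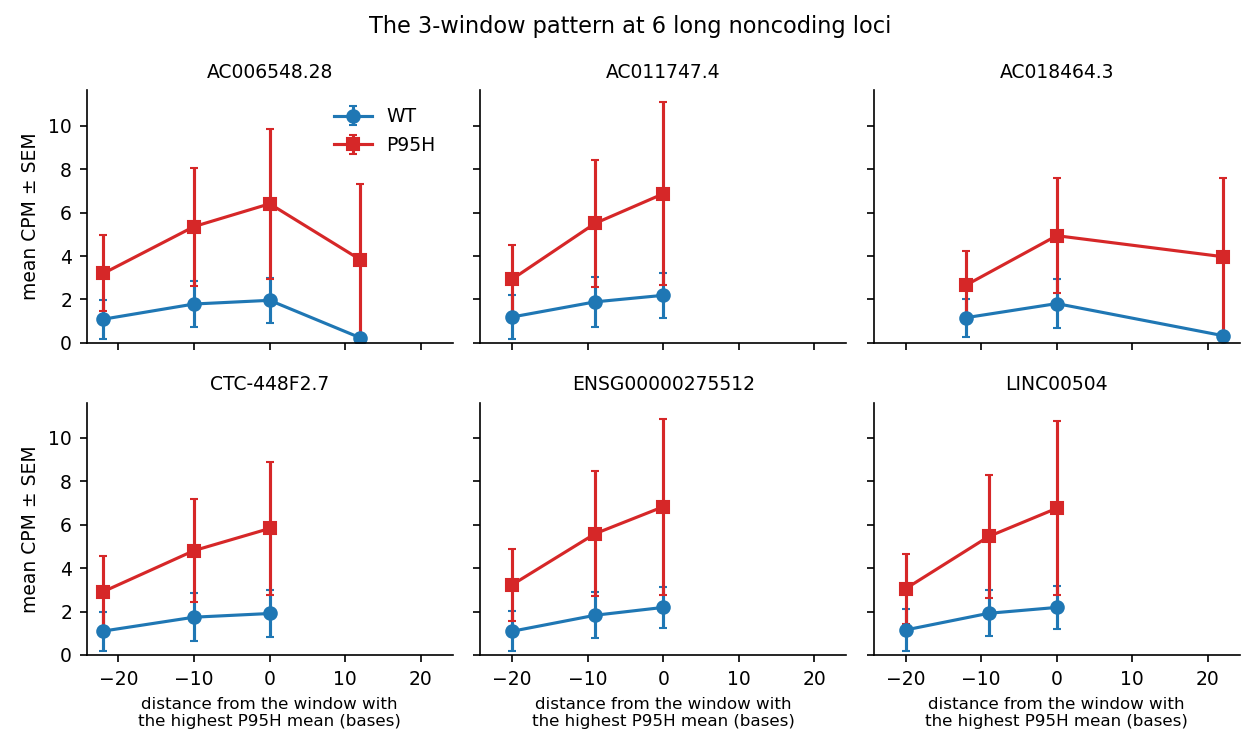
Deposited mean CPM (± standard error, 4 samples per genotype) by window at the 6 long noncoding loci of the recurring run, placed by distance in bases from the window with the highest P95H mean; AC006548.28 and AC018464.3 are turned round. P95H (red) lies above WT (blue) at every window, as the search required, with highest means between 4.94 and 6.87 CPM.

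LINC00504 had 6 further windows, all higher, so that all 9 of its windows rose by 1.24 to 2.78 on the log2 scale in the authors' deposited table. Some of the 6 were also close to windows of other loci. A pair rose from 0.22 to 0.85 and from 0.77 to 2.09 CPM, and a pair of LINC00976 from 0.13 to 0.89 and from 0.65 to 2.05 CPM. AC006548.28 had 10 windows over its length, 9 higher and 1 lower, the latter falling from 3.58 to 1.47 CPM. RP11-306O13.1 (7 windows, 5 higher) and LA16c-60D12.1 (6 windows, 5 higher) mixed both directions. Their leading P95H means were 5.05 and 5.19 CPM. Both had at most 1 RNA-seq count in any library. A lower window of each had similar means, from 1.75 to 0.57 CPM in RP11-306O13.1 and from 1.69 to 0.5 CPM in LA16c-60D12.1. A window each of UGDH-AS1 (1.74 to 0.58 CPM) and XXbac-BPG154L12.4 (1.69 to 0.51 CPM) was close to these. Near repeats among lower windows, or outside the rule for runs, were not searched for.

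HELLPAR, a macro lncRNA of chromosome 12, known from a disorder of pregnancy, had 6 windows, all higher in P95H. They lay between positions 102251066 and 102312418 on the plus strand, with no window on the other strand. Deposited WT means ran from 0.01 to 1.17 CPM and P95H means from 0.87 to 3.73 CPM. The log2 changes in the authors' deposited table were 1.67 to 5.14. Of these, 2 windows carried values identical to those at other loci, 1 with ORC4, SOD2 and AC007743.1 and 1 with RP11-382B18.1. The other 4 had no exact match, but near matches of single windows were not searched for. For example, 2 of the 4 went from 0.22 ± 0.17 to 2.92 ± 2.62 CPM and from 0.25 ± 0.16 to 3.03 ± 2.70 CPM. In both of these, 1 P95H sample held at least 80% of the P95H signal, by the bound given below. A window of CTC-448F2.7 went from 0.31 to 3.25 CPM. The window with the highest means went from 1.17 ± 0.45 CPM in WT to 3.73 ± 2.58 CPM in P95H in that table.

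AC079466.1, a lincRNA of chromosome 19, had the highest RNA level of all members (820 to 973 CPM) and 14 windows. Of these, 10 lay within positions 28607040 to 28607100 and fell, for example from 13.4 ± 8.1 to 4.72 ± 2.5 CPM at the highest one in the authors' deposited table. A further pair near 28611274 fell from 1.02 ± 0.88 to 0.41 ± 0.24 CPM. The last pair, from 28613003, rose from 0.34 ± 0.24 to 1.99 ± 1.26 and from 0.42 ± 0.34 to 1.34 ± 0.78 CPM. Windows assigned to 1 gene thus changed in both directions, and whether 1 RNA molecule holds them all was not tested. RNA level was 820 and 829 CPM in WT and 908 and 862 CPM in P95H.

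Among hosts of small nucleolar RNAs, GAS5 and ZFAS1 were lower in P95H and SNHG14 was higher. GAS5, a growth-arrest RNA that hosts many C/D box snoRNAs, had 2 overlapping windows that fell from 1.84 ± 1.21 to 0.57 ± 0.27 CPM in the authors' deposited table. ZFAS1, also a snoRNA host, fell from 3.09 to 0.21 CPM and from 3.20 to 0.31 CPM in its 2 windows, log2 changes of -3.50 and -3.06 in the authors' deposited table. SNHG14, the imprinted host of the Prader-Willi snoRNA clusters, rose from 0.14 to 0.61 CPM. These 3, but not SNHG1 and SNHG17 with windows of other classes, were the members among 27 listed snoRNA hosts. Of the 23 such hosts that RNA-seq could test, 16 had a positive log2 difference and 0 passed edgeR's test or had an unadjusted p under 0.05. Positive differences made up 50.5% of all genes and 68.2% of long noncoding genes without a window. Of all genes, 0 passed and 1.03% had an unadjusted p under 0.05 by edgeR.

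Among 37 listed nuclear, imprinted and other known long noncoding RNAs, 5 had windows. KCNQ1OT1, the imprinting RNA of the KCNQ1 domain, fell from 1.60 to 0.47 CPM, and FIRRE, an X-linked chromatin-organising RNA, fell from 0.77 to 0.16 CPM. TUG1 rose from 0.13 ± 0.05 to 1.48 ± 1.44 CPM in the authors' deposited table. LINC00657, known as NORAD, an abundant sponge of Pumilio proteins, had 3 windows that rose to 0.88, 1.42 and 1.57 CPM from 0.18, 0.48 and 0.18 CPM respectively. LINC00152 rose from 0.05 ± 0.05 to 1.30 ± 1.28 CPM in the authors' deposited table. MIR4435-2HG, its near-identical relative on the same chromosome and the 1 member among 16 listed microRNA hosts, rose from 0.04 ± 0.04 to 1.31 ± 1.28 CPM there. The pair had nearly equal values, and reads of the 2 genes may not be separable. MIR222HG, named after its values were seen, had 2 windows that fell from 1.60 CPM to 0.34 and 0.62 CPM.

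RNU11 and RNU12 were labelled lincRNA but are the U11 and U12 small nuclear RNAs of the minor spliceosome. All 5 of their windows were higher in P95H, as were all 47 windows labelled snRNA. RNU12 went from 11.01 ± 4.5 to 23.9 ± 12.5 CPM and RNU11 from 1.65 ± 0.07 to 5.32 ± 1.88 CPM in the authors' deposited table. LINC00910 on chromosome 17 rose from 5.20 ± 2.80 to 20.2 ± 15.5 CPM there.

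The largest changes rested on few samples. For 4 samples, a mean and its standard error fix the sum of squares, so that the largest sample must hold at least 0.25 + 0.75 × (standard error / mean)² of the total, if the standard error is the SD over the square root of 4. By that bound 1 sample held at least 80% of the signal of the higher genotype in 96 of the 340 windows (28.2%), as it did in 31.8% of all windows. Of the 55 long noncoding windows with a change of at least 16-fold, 38 did (69.1%), and of the 6 largest rises and 6 largest falls, 10. The share among windows of other classes with changes of that size was not computed. KIAA0125, a lincRNA of the immunoglobulin heavy chain region, had 2 windows at 1.28 ± 1.26 CPM in WT and 0 in P95H in the authors' deposited table, where 1 WT sample held at least 97.7%. CTD-2525I3.5, an antisense transcript across from the zinc finger gene ZNF480, had 6 lower windows in a row, with WT means of 3.06 to 3.56 CPM and P95H means of 0 to 0.82 CPM. At least 82.6% of the WT signal came from 1 sample in each.

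The exceptions among those 12 were AC025165.8, described above, and RP11-66N24.4, at 1.16 ± 0.77 CPM in WT and listed at 0 in P95H in the authors' deposited table. The bound on the largest sample was 48.7% for the first and 58.0% for the second. LINC01057, just outside the 6 largest rises, had 3 windows that rose from 0.01 CPM to between 0.83 and 0.99 CPM, with a bound of 49.9 to 52.2%. The other large rises were those of RP5-965G21.3, to 1.95 and 1.99 CPM from 0.01 and 0.02, of RP4-717I23.3, to 1.49 CPM from 0.01, and of EIF3J-AS1, to 2.29 CPM from 0.02. In each of these a single P95H sample held at least 91.7% of the signal. The 4 windows of C5orf66, with WT means of 1.78 to 2.26 CPM, fell to at most 0.18 CPM, and at least 80.8% of their WT signal came from 1 sample.

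**Figure D4:**
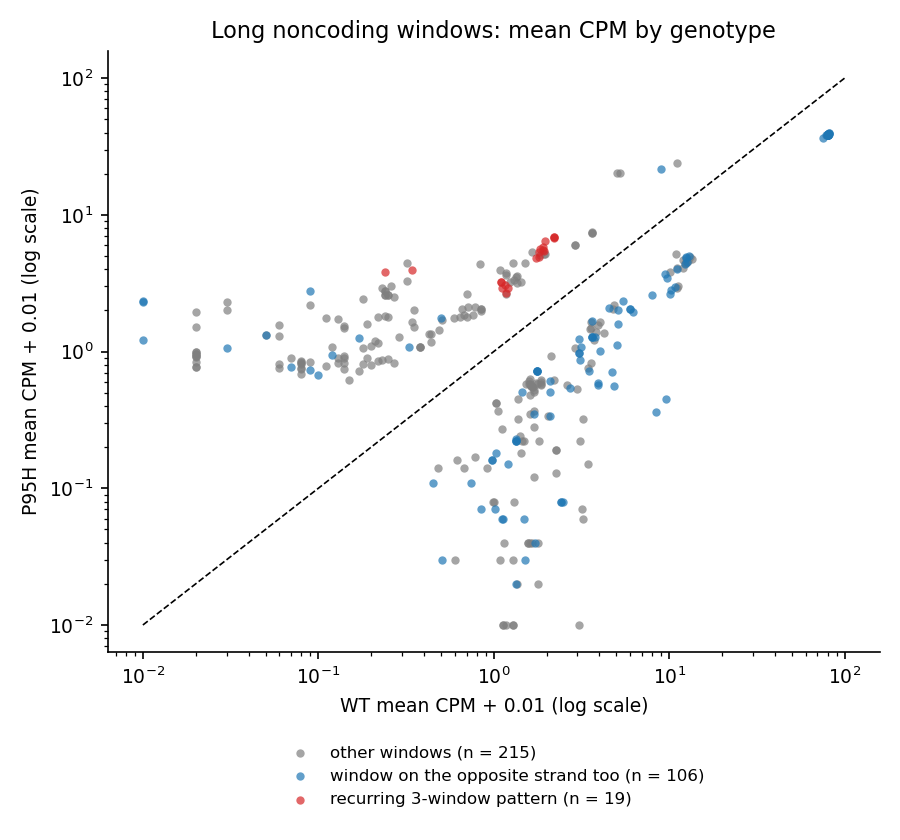
Deposited mean CPM in WT (horizontal) and P95H (vertical) for each of the 340 long noncoding windows, on log axes after adding 0.01, with the dashed line at equal values. Mirrored windows (blue, 106) lie mostly below the line, and the recurring run (red, 19), searched only among higher windows, lies above it. No window lies close to the line because the table holds only changes of at least 2-fold.

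RNA-seq asks whether the genes differed in level between P95H and WT. Libraries held 37414093 to 45005605 counts, SRSF2 stood at 221 and 243 CPM in WT, 222 and 253 CPM in P95H and 284 CPM in the library labelled uninduced, and erythroid and megakaryocytic markers were all present (3.88 to 1517 CPM over 11 genes). The highest SRSF2 level was thus in the library without induction by its label, and P95H against WT did not pass the test. Markers of other cells reached at most 4.02 CPM, with EPCAM and KRT5 at 0. Of the 159 genes, 107 had enough counts to be tested and 52 did not. None passed edgeR's quasi-likelihood test after Benjamini-Hochberg adjustment, as none of all 22007 genes did (0.0%). At an unadjusted p under 0.05, edgeR had 4 members, beside 227 of all genes (1.03%), and DESeq2 had 2 members, beside 100 of all genes and 0 after adjustment. The labels call the libraries biological replicates without naming separate cultures, so p-values measure the spread between these samples.

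Many of the genes had few or no RNA-seq counts. RNU11, an RNA of every cell, was among those at 0, so a 0 here says what was counted and not that the RNA was absent. In 22 genes no read was counted in any of the 5 libraries, which allows up to 0.0667 to 0.0802 CPM by a limit of 3 counts, for counting error only. In 39 genes no library had more than 3 counts, and these held 87 of the 340 windows, 46 of them higher in P95H.

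The tested members leaned upward, as long noncoding genes did in general. Of the 107, 77 had a positive log2 difference (72.0%), with a median of 0.12, where all genes had 50.5% and a median of 0.002. Long noncoding genes without a window had 68.2% positive of 4469, with a median of 0.15, and protein-coding genes 40.9% of 13575, with a median of -0.03. The P95H and WT libraries did not overlap in 29 members, 24 with P95H higher and 5 lower, where they did not overlap in 24.5% of all genes. Long noncoding genes with and without windows thus leaned the same way, and no test was made of the difference between them.

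HELLPAR had the smallest p of the members. Its level was 133 and 139 CPM in P95H, 95.8 and 96.4 CPM in WT and 127 CPM in the library labelled uninduced, so the groups did not overlap and the uninduced library was close to P95H. The log2 difference was 0.52 (SE 0.10), with an unadjusted p of 0.00152 and an adjusted p of 0.9999 by edgeR. It was 0.47 and 0.53 between libraries of replicate number 1 and 2. With the replicate number as a block, edgeR's adjusted p was 0.000118, and 2 members then passed, beside 0.382% of all genes. Overlapping genes on the other strand, IGF1 and PMCH among them, had at most 0.87 CPM on average. HELLPAR thus had both higher listed binding in all 6 windows and a higher RNA level in both P95H libraries. Of those 6 windows, 2 had values identical to other loci and 2 were led by 1 P95H sample. Binding per RNA cannot be computed, since the samples of the 2 assays are separate.

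The other members with an unadjusted p under 0.05 were small in effect or low in counts. ZNRD1-AS1 was at 25.1 and 21.9 CPM in P95H against 18.1 and 17.4 in WT (log2 0.41, SE 0.14, edgeR adjusted p 0.9999). LINC00923 was at 20.8 and 20.4 CPM against 16.6 and 16.5 (log2 0.33, SE 0.13), with the uninduced library at 20.1 CPM. GFOD1-AS1 had 0.30 and 0.43 CPM against 0.13 and 0.10 (log2 1.64, SE 0.58), lying inside GFOD1 at 115 CPM on the other strand. Whether the counting used strand was not stated, so reads of the antisense transcripts and their partners may not be separable. KIAA0125 was at 65.6 and 44.7 CPM against 55.6 and 23.7 (log2 0.49, SE 0.40), with replicates further apart than genotypes, and it passed with the replicate block (log2 0.58, edgeR adjusted p 0.00217).

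The signs of the binding and RNA differences matched in about as many genes as not. Among the 41 tested genes whose windows were all higher, 30 had a positive RNA difference (median 0.13), and among the 60 whose windows were all lower, 42 did (median 0.08). The sign of the median binding change equalled that of the RNA difference in 52 of 107 genes (48.6%). The widely known members stayed near equal levels: LINC00657 was at 660 and 677 CPM in P95H and 665 and 764 in WT, GAS5 at 294 and 337 against 291 and 320, and TUG1 at 99.9 and 112 against 101 and 105. ZFAS1, whose binding fell most among the 3 snoRNA hosts with long noncoding windows, was at 26.8 and 29.7 CPM against 25.5 and 26.3. KCNQ1OT1 was at 112 and 95.2 CPM against 86.1 and 91.0 (log2 0.24, SE 0.12, edgeR adjusted p 0.9999).

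**Figure D5:**
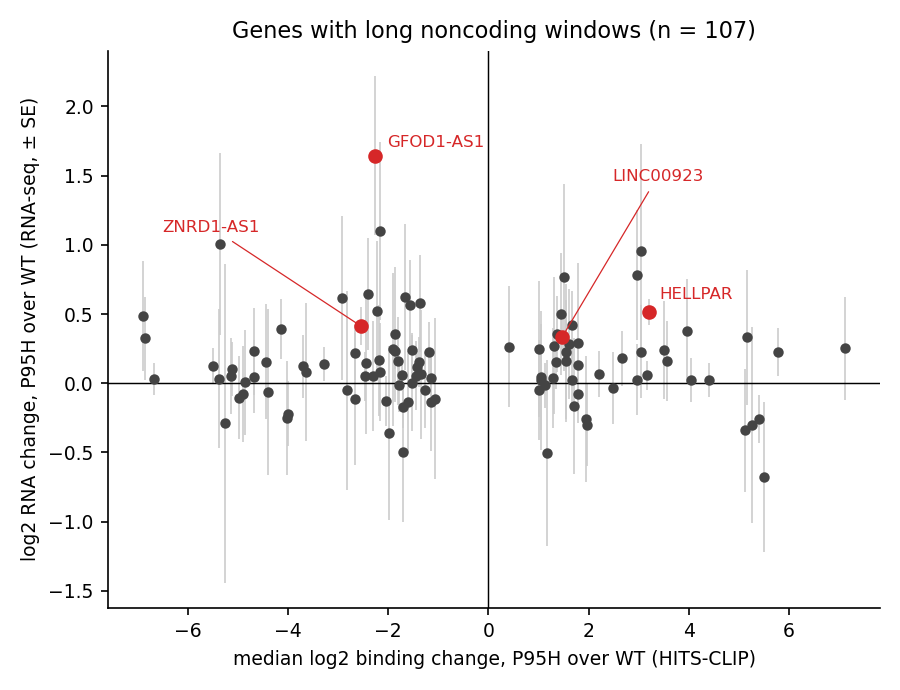
Median log2 binding change of each gene's windows (horizontal, from the authors' deposited table) against its log2 RNA difference between P95H and WT (vertical, ± standard error) for the 107 genes that RNA-seq could test; the 4 genes with an unadjusted p under 0.05 are red. Genes fall on both sides of 0 in RNA whatever the direction of binding, with 52 of 107 having the same sign in both.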

How the data were processed

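HITS-CLIP of tagged SRSF2 (4 WT, 4 P95H) and RNA-seq after rRNA depletion (2 WT, 2 P95H, 1 uninduced) were grouped by the labels. The HITS-CLIP table was deposited by the authors as their own comparison, with, per the file headers, a log2 change of P95H over WT, an FDR (adjusted p-value) and the mean CPM with its standard error per genotype. Per-sample HITS-CLIP values were not used here, and what CPM refers to and how windows were tested are not stated. Window lengths (end minus start) are 20 or 21 bases. RNA-seq was deposited by the authors as raw counts per gene, and the file gives GRCh38 positions. Per the submitters' processing notes STAR 2.5.3a, TopHat2 2.0.14, edgeR and GRCh38.p3 were used, with no role given.

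Of 8324 entries, 224 repeated a position, leaving 8100 windows. Windows were called mirrored when another overlapped them on the opposite strand. RNA counts were filtered with filterByExpr, scaled by TMM and compared by edgeR 4.0.16 (quasi-likelihood test, group only, Benjamini-Hochberg adjusted p under 0.05 over all 22007 genes, two-sided) in R 4.3.3, with DESeq2 1.42.0 as an alternative. The uninduced library entered no fit. RNA CPM are TMM-scaled. The edgeR script was tested on simulated data. Figures used matplotlib 3.10.9 and tables pandas 2.3.3. Gene positions of the count table overlapped those of RefSeq GRCh38.p14 for 99.97% of 17930 genes matched by symbol.

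The members and gene lists were chosen with earlier results of these data known. Genes were named by rule: the 12 with the most windows, the 6 largest rises and 6 largest falls, the highest means, genes with windows in both directions, RNA calls, and listed snoRNA hosts, microRNA hosts and known nuclear RNAs. Others were named after their values were seen, and not all genes under the rule are described. A correlation of binding with RNA change was planned, but binding values below 2-fold are missing from the table, so the share of equal signs is given. Sequences were planned for all windows of the largest changes and could be read only inside promoters.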

Additional observations from a re-analysis of the deposited data

How the results depend on the processing

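The share of windows higher in P95H (44.7%) and their median log2 change (-1.06) were recomputed under 12 settings. The share was 53.7% over merged regions, 59.0% without mirrored windows and 48.4% with each gene counted once (36.0% over all genes with windows). It was 31.7% where the higher mean was at least the table median (10.7% over all windows). It stayed above that of the whole table in each. The median was -1.42 at an adjusted p of at most 0.01 and -2.04 at 4-fold, and turned to 1.23 over regions and to 1.32 without mirrored windows. Changes under 2-fold are missing, so the median jumps from one side to the other when the share passes 50%. The 5 settings without mirrored windows, the recurring run, RNU11, RNU12 and LINC00910, windows led by 1 sample, or LINC00987 were chosen after seeing the data. No paired analysis or leaving out of replicates was possible for HITS-CLIP because only group values were used.

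In RNA-seq, same-numbered libraries deviated together (correlation 0.53 across 22007 genes), but the labels do not pair them. With the replicate block edgeR called 2 members (HELLPAR 0.52, KIAA0125 0.58) and 84 of all genes, 41 of them higher. Without a filter it called 15 of all genes. Leaving out 1 library at a time gave 0 calls throughout, a median RNA difference of 0.063 to 0.167, 39.1 to 45.9% of genes with equal signs, and for KIAA0125 -0.017 (without WT replicate 2) to 1.24. The cause of these moves was not tested. Over binding, sequence and RNA results together, 100 recomputed values were counted as unchanged. That meant inside the interval of the main value, a similar or equal count, or the same sign and side of the threshold. Of the other recomputed values, 10 moved, 3 changed sign and 2 became stronger. Some of the 100 had little room to change, such as 0 calls in both settings or a sequence share with a wide interval. The tally is therefore not a measure of robustness. The low-count filter left 52 member genes untested, and why their counts were low was not tested.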

Other observations

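Windows with identical deposited values at another locus, over 100 kb away, numbered 18 of the 340, and 12 of them were higher in P95H. FAM157A, FAM157B and FAM157C, related genes on chromosomes 3, 9 and 16, each had 1 window at 0.37 ± 0.37 CPM in WT and 1.07 ± 1.04 CPM in P95H in the authors' deposited table. LINC01515 on chromosome 10 and AC093323.3 on chromosome 4 each had a window at 1.12 ± 1.09 CPM in WT and listed at 0 in P95H in the authors' deposited table, as did HSP90B1, a coding gene for an endoplasmic reticulum chaperone. In RNA-seq LINC01515 stood at 22.0 to 25.1 CPM and AC093323.3 at 28.5 to 31.5 CPM, and neither passed edgeR's test. How reads that align to several places were treated was not stated.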
